A study of Mus musculus with 6 samples.

Results

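The genes described here are 9 enzymes that remove reactive oxygen species or build the cell's defence against them, together with 1 enzyme subunit that makes them. They are the superoxide dismutases Sod1, Sod2 and Sod3, catalase (Cat), the glutathione peroxidases Gpx1, Gpx3 and Gpx4, the quinone reductase Nqo1, the glutathione synthesis subunit Gclc, and Cybb, the catalytic subunit of the phagocyte NADPH oxidase. These 10 genes were chosen by name from the 56884 genes of the count table, and all 10 had enough reads to be tested. The study asked how loss of the DNA methyltransferase Dnmt3a changes gene expression in endometriotic lesions. The libraries came from 3 control (WT) and 3 Dnmt3a knockout (KO) ectopic lesions. Every lesion grew from endometrium of a donor female aged 8 weeks, placed in a syngeneic wild-type C57BL/6J female that carried an estradiol pellet, after the donor had received estradiol. Both kinds of donor carried floxed Dnmt3a alleles. WT donors were Dnmt3a f/f without Cre, and KO donors were Dnmt3a f/f:PR Cre/+, in which Cre acts in cells that express the progesterone receptor. Cells of the recipient, including its immune cells, kept an intact Dnmt3a in both groups. The sample labels give a time of 4 weeks and describe injected tissue fragments, whereas the methods give collection on day 21 and fragments sutured to the mesentery.

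Superoxide is formed by NADPH oxidases and as a by-product of respiration. Superoxide dismutases turn it into hydrogen peroxide, in the cytosol (Sod1), in mitochondria (Sod2) and outside the cell (Sod3). Catalase and the glutathione peroxidases then remove the peroxide, and the peroxidases draw on glutathione, whose synthesis is limited by the ligase that contains Gclc. The transcription factor NRF2 (Nfe2l2) induces many of these genes, Nqo1 and Gclc among them. In endometriosis, iron from shed blood and activated phagocytes are known sources of oxidants.

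Dnmt3a places methyl groups on cytosines followed by guanines (CpG), so the CpG content of a promoter sets how many such positions it offers. Promoter windows from 250 bases before to 50 bases after the start site were taken from RefSeq (GRCm38.p6) for the 8 members with an entry, and Sod3 and Gclc had none. The windows of 4 members are shown, with CpG in capitals, because they span the range of CpG content and include both genes that passed the threshold given below. Sod1 (chr16:90220512-90220811, plus strand) holds 34 CpG, Sod2 (chr17:13007589-13007888, plus strand) 21, Nqo1 (chr8:107403156-107403455, minus strand) 5 and Cybb (chrX:9469275-9469574, minus strand) 1, against a median of 7 over all 32851 windows.
Sod1: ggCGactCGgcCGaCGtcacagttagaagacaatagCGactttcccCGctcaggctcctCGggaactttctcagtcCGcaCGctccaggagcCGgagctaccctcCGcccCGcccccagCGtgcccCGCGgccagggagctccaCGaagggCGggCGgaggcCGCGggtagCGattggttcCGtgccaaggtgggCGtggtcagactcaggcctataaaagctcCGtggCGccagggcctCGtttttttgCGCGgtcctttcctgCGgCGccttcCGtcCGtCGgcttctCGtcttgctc
Sod2: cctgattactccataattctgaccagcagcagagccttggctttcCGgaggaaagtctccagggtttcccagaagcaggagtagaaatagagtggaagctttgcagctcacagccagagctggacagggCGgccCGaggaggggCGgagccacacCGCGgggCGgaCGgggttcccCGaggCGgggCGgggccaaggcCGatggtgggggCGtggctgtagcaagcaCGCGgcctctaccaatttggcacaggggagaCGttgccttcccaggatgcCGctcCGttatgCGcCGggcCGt
Nqo1: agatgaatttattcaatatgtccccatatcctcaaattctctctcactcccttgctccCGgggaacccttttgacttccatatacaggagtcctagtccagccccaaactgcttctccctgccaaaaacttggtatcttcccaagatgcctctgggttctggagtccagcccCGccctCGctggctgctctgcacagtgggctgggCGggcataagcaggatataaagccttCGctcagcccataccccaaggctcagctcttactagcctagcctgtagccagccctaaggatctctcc
Cybb: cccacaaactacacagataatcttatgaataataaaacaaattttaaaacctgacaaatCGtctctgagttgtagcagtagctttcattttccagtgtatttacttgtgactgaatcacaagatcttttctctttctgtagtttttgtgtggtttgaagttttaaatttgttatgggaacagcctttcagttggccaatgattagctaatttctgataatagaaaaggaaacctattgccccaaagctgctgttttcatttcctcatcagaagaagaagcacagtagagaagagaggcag
The Cybb window is almost free of CpG, with 35.3% G and C, whereas the Sod1 window has CpG throughout. Methylation was not measured in these libraries. Only these windows were searched for motifs, so sites farther from the start site, of Nqo1 or other members, would be missed. Of 3 short motifs searched on both strands, the antioxidant response element core of NRF2 (TGACNNNGC) occurred in the Sod1 window only among the 8 members with an entry, and 12.4% of all windows hold it. The AP-1 motif TGANTCA occurred in the Cybb window only (7.81% of all windows). GAGGAA, the core bound by PU.1 and other ETS factors, occurred in the windows of Cybb, Sod2, Cat and Gpx3 (28.3% of all windows).

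The libraries held 45370342 to 57239184 counted reads each. Dnmt3a itself stood at 43.9 to 52.7 CPM in WT and 30.3 to 36.2 CPM in KO lesions, where CPM is the gene's count per 1000000 reads after TMM scaling of the libraries. Each library is RNA of a whole lesion, so a lower level cannot be told apart from fewer cells of the type that expresses the gene. Markers of endometrial epithelium and stroma were present in all 6 lesions, except that the gland factor Foxa2 was at or below 2.62 CPM and at 0 in KO replicate 3. Libraries differed in other cell types. The summed level of 10 neutrophil markers was 10063 CPM in WT replicate 2 and 43.4 to 499 CPM elsewhere, and 10 skeletal muscle markers summed to 29599 and 31664 CPM in WT replicates 1 and 3 but at most 15.4 CPM in the other lesions. The 10 macrophage markers summed to 2848 CPM in WT replicate 2 against 582 to 1469 CPM elsewhere. Adipocyte markers were highest in KO replicate 3, at 4576 CPM for 8 genes, followed by WT replicate 2 at 2980 CPM, and were 533 to 1278 CPM in the other lesions. In KO lesions 2 of 8 smooth muscle markers (Cnn1 and Actg2) were higher past the threshold described next. So were 3 of 8 stroma markers (Hoxa11, Hand2 and Esr1), against 3.1% of all genes. In the edgeR fit described there, the adjusted p-values of these markers were 0.321 to 0.328. Every KO value lay above the WT values for 5 of 8 and 3 of 8 markers, against 10.7% of all genes. The log2 fold change was negative for Des (-2.16) among smooth muscle markers. It was also negative for the stroma markers Pdgfra (-0.86), Col1a1 (-0.46) and Col3a1 (-0.91). None of these passed the threshold. The sums of both lists overlapped between groups, at 1119 to 4957 CPM in WT and 2303 to 4041 CPM in KO lesions for smooth muscle and at 7050.02 to 9083 CPM and 2659 to 8834 CPM for stroma. The part of these cell types in the values of the redox genes was not tested.

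In edgeR's quasi-likelihood fit over 18177 genes, 2 of the 10 members, Sod2 and Nqo1, were lower in KO lesions at the study's threshold, which asks for a log2 fold change beyond 1 in size at an unadjusted p-value under 0.05. No member was higher at that threshold. Over all genes tested, 5.85% were lower and 3.1% higher, against 2 of 10 and 0 of 10 members. The count of 2 became 0 without KO replicate 1 (2.9% lower and 2.25% higher over all genes) and to 0 without KO replicate 2 (3.48% and 1.48%). After Benjamini-Hochberg adjustment over all genes, 0 of the 10 members had an adjusted p-value under 0.05 (lowest 0.328), where the background was 0.0055% lower and 0% higher. DESeq2 and limma voom also gave 0 members at an adjusted p-value under 0.05. Of the 18177 genes, DESeq2 placed 709 lower and 391 higher at that limit, and voom 12 lower and 0 higher. At an unadjusted p-value under 0.05 alone, the members that passed were the same pair, with a background of 8.16% lower and 6.55% higher. Without WT replicate 2 the count was 1 (Nqo1), with a background of 5.86% lower and 2.1% higher, and without KO replicate 3 it was 4 (Sod2, Sod3, Gpx3 and Nqo1), with 8.66% lower and 5.36% higher. DESeq2 placed 3 members past the threshold (Sod2, Nqo1 and Cybb), with 7.43% of genes lower and 3.77% higher. The log2 fold change was negative for 6 of the 10 members and for 48.6% of all genes, and the members' median was -0.33 against 0.01 over all genes. For Sod2 and Nqo1 the lowest WT lesion exceeded the highest KO lesion, as in 8.74% of all genes. No member had every KO value above the WT values (10.7% of all genes), and for the other 8 the groups overlapped.

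**Figure D1:**
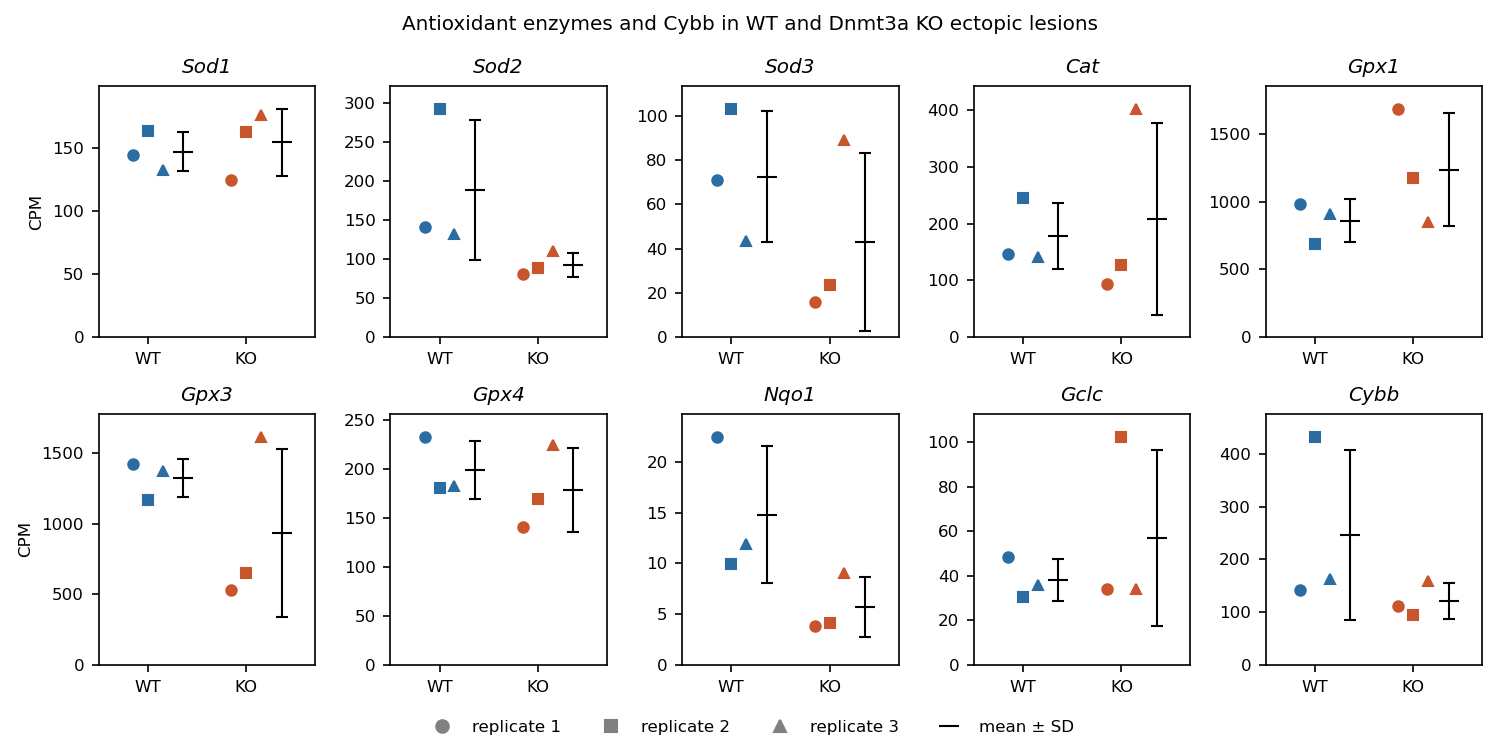
Level of the 10 members in each lesion, in CPM on a linear axis from 0, with 1 panel per gene. Blue symbols are WT and orange symbols KO lesions, the symbol shape gives the replicate number, and the black bar is the mean ± SD of 3 lesions. The groups separate for Sod2 and Nqo1 and overlap for the other genes.

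Among the superoxide dismutases, the mitochondrial enzyme was lower in KO lesions and the cytosolic enzyme was near level. Sod2 (ENSMUSG00000006818.6, chromosome 17, bases 13006846 to 13040063 in GRCm38) stood at 141, 292 and 133 CPM in WT replicates 1, 2 and 3 and at 80.3, 88.1 and 110.1 CPM in the KO lesions. The groups did not overlap, and WT replicate 2 was far above the rest. The means were 189 ± 90.0 CPM in WT and 92.9 ± 15.5 CPM in KO (SD, n = 3), a 2.03-fold difference. On the log2 scale KO lesions differed by -1.02, standard error 0.35 (edgeR unadjusted p = 0.0257, adjusted p = 0.328). Without WT replicate 2 it was -0.56 (unadjusted p = 0.0207), which no longer passes the fold limit, and without KO replicate 1 or 2 it was -0.93 and -0.98 at edgeR unadjusted p = 0.0875 and 0.0743. Sod2 divided by the summed macrophage markers gave 11.4%, 10.3% and 10.8% in WT and 10.1%, 15.1% and 7.5% in KO lesions, and these ranges overlapped. All 10 macrophage markers were detected in every lesion, none passed the threshold, and their part in the Sod2 values was not tested.

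Sod1 had 144, 164 and 133 CPM in the WT group and 125, 163 and 176 CPM in the KO group. The KO range contained the WT range, and the log2 fold change was 0.072 with a 95% interval from -0.36 to 0.50. Ccs, the chaperone that loads copper into Sod1, had 17.9 to 19.6 CPM in WT and 20.9 to 23.8 CPM in KO lesions, without overlap (log2 fold change 0.24, edgeR unadjusted p = 0.103).

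Sod3, the secreted enzyme, had 71.0, 103 and 43.6 CPM in WT. In KO lesions it was low in replicates 1 and 2, at 16.0 and 23.5 CPM, and 89.2 CPM in replicate 3, inside the WT range. Its log2 fold change of -0.76 had a 95% interval from -2.48 to 0.96 (edgeR unadjusted p = 0.320). Without KO replicate 3 it was -1.88 (unadjusted p = 0.00812). KO replicate 3 is also the lesion with the highest adipocyte marker level, and relative to the summed adipocyte markers Sod3 was 5.56%, 3.46% and 4.28% in WT and 3.00%, 2.5% and 1.95% in KO lesions. These ratios did not overlap, but the gap from 3.46% to 3.00% was narrow. The ratio was added after seeing the data, and its share over all genes was not computed. The part of adipose tissue in the Sod3 values was not tested.

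**Figure D2:**
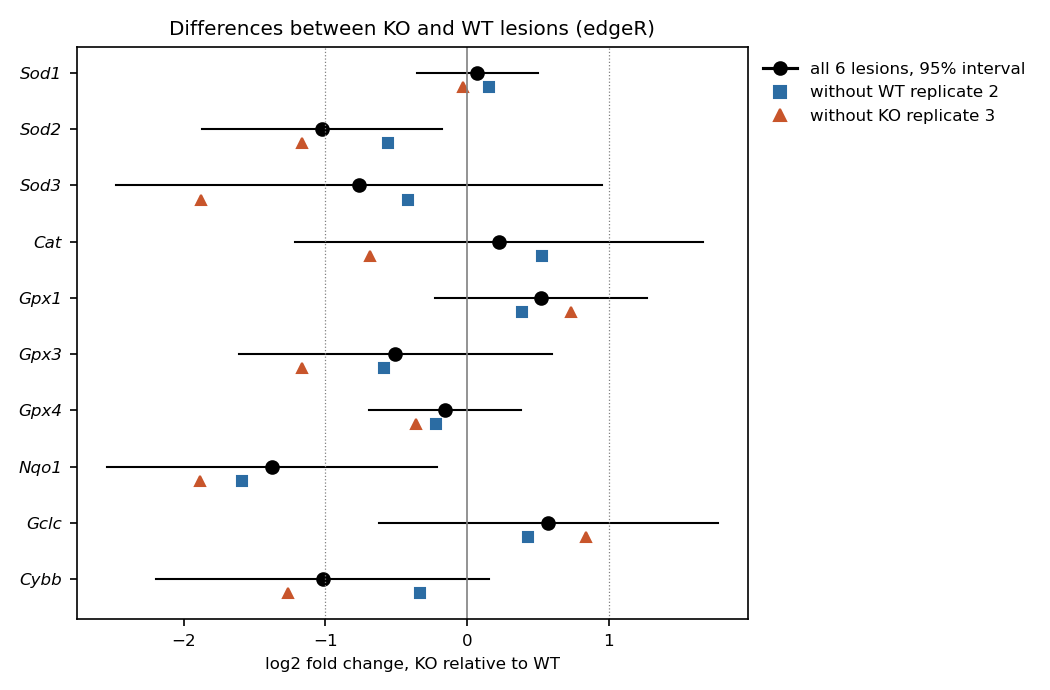
Log2 fold change of each member in KO relative to WT lesions from edgeR. Black points and lines are the estimate from all 6 lesions with its 95% interval, blue squares leave out WT replicate 2 and orange triangles leave out KO replicate 3. Only the intervals of Sod2 and Nqo1 lie below 0, and leaving out KO replicate 3 moves Cat from 0.22 to -0.69.

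Among the enzymes that remove hydrogen peroxide, no difference passed the test. None of the 7 tested genes among catalase and the 8 listed glutathione peroxidases passed the threshold or an unadjusted p-value under 0.05 in edgeR in either direction, and their median log2 fold change was -0.16. Gpx5 and Gpx6 were not tested because they had too few reads.

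Cat had 147, 245 and 141 CPM in the WT group and 94.3, 127 and 403 CPM in the KO group. KO replicates 1 and 2 were the lowest of the 6 lesions and KO replicate 3 the highest. The means, 178 ± 58.5 CPM in WT and 208 ± 169 CPM in KO (SD, n = 3), therefore say little of any lesion. The log2 fold change was 0.22 (95% interval -1.21 to 1.66) and turned to -0.69 without KO replicate 3, and limma voom and the fit with a replicate block also gave negative values. The 6 lesions ranked in the same order for Cat as for the summed adipocyte markers, all 8 of which were detected in every lesion. None of these 8 passed the threshold, and their part in the Cat values was not tested. Relative to their sum it was 11.5%, 8.24% and 13.9% in WT and 17.7%, 13.5% and 8.80% in KO lesions, and the ranges overlapped.

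Gpx1, the cytosolic peroxidase, had 985, 686 and 912 CPM in the WT group and 1687, 1175 and 853 CPM in the KO group. KO replicates 1 and 2 lay above all WT lesions and KO replicate 3 inside their range. The log2 fold change was 0.52 (95% interval -0.23 to 1.27, edgeR unadjusted p = 0.138). The summed endometrial epithelium markers had the same order at the top, 37164 and 28668 CPM in KO replicates 1 and 2 against 11616 to 20997 CPM in the other lesions, most of it from the secreted iron-binding protein Ltf. None of these 10 markers passed the threshold, and their part in the Gpx1 values was not tested. As a share of that sum, Gpx1 was 4.69%, 5.91% and 5% in WT and 4.54%, 4.10% and 4.88% in KO lesions, with overlap.

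Gpx3, the secreted plasma peroxidase and the member with the most reads in WT, was low in the KO lesions in which Gpx1 was high. It stood at 1425, 1171 and 1374 CPM in WT, at 529.6 and 650.5 CPM in KO replicates 1 and 2, and at 1617 CPM in KO replicate 3. The log2 fold change of -0.51 had an interval from -1.61 to 0.60 (edgeR unadjusted p = 0.305), and without KO replicate 3 it was -1.16 (unadjusted p = 0.00285). Per transcript length, the ratio of Gpx1 to Gpx3 was 1.03, 0.872 and 0.987 in WT, 4.74 and 2.69 in KO replicates 1 and 2, and 0.784 in KO replicate 3. The WT lesions thus held near-equal amounts of both mRNAs, and the KO lesions disagreed among themselves. Among the KO lesions, replicate 3 also had the highest summed markers of stroma (8834 CPM against 3916 and 2659 CPM), endothelium (664 CPM against 332 and 235 CPM) and adipocytes, and the part of these cell types in the Gpx3 values was not tested.

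Gpx4, the peroxidase that repairs membrane lipids and guards against ferroptosis, had 233, 181 and 183 CPM in the WT group and 141, 169.8 and 225 CPM in the KO group. The ranges overlapped, with a log2 fold change of -0.16 and a 95% interval from -0.69 to 0.38.

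**Figure D3:**
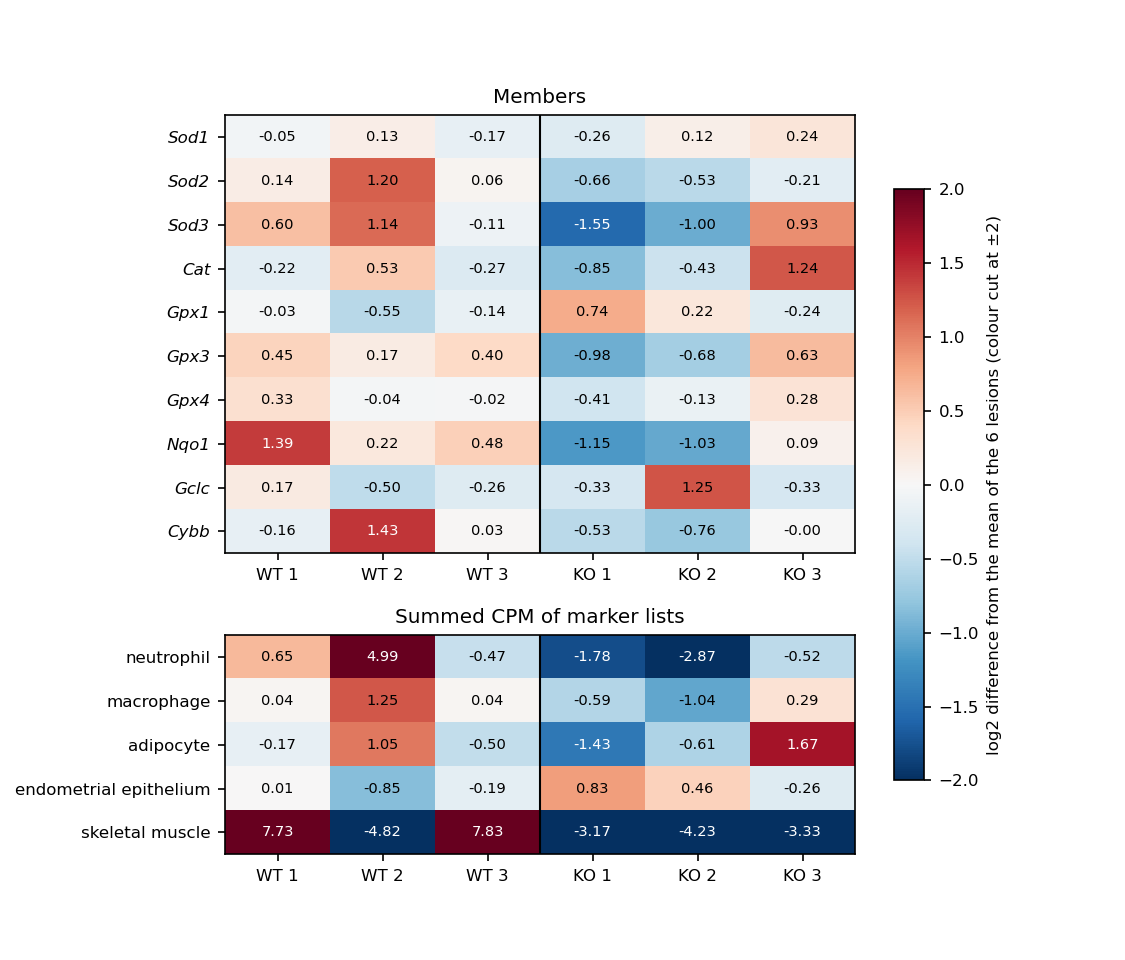
Each lesion's log2 difference from the mean of all 6 lesions, for the 10 members (log2 CPM, upper block) and for the summed CPM of 5 marker lists (lower block). Red is above and blue below the mean, with colours cut at 2. WT replicate 2 is high for Sod2, Sod3 and Cybb and for neutrophil and macrophage markers, and KO replicate 3 is high for Cat, Sod3 and adipocyte markers.

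Nqo1, which reduces quinones and is a standard readout of NRF2, showed the largest log2 fold change of the members in size. Nqo1 (ENSMUSG00000003849.9, chromosome 8, bases 107388225 to 107403206 in GRCm38) had 22.5, 9.95 and 11.9 CPM in the WT group and 3.82, 4.17 and 9.11 CPM in the KO group. WT replicate 1 was highest, and the gap between the lowest WT and the highest KO lesion was narrow. The means were 14.8 ± 6.76 CPM and 5.70 ± 2.95 CPM (SD, n = 3), a 2.59-fold difference. On the log2 scale KO lesions differed by -1.38, standard error 0.48 (edgeR unadjusted p = 0.0278, adjusted p = 0.328). It was -1.59 with WT replicate 2 left out and -1.88 with KO replicate 3 left out. The call was lost without WT replicate 1 (-0.94, edgeR unadjusted p = 0.0938), KO replicate 1 (-1.15, edgeR unadjusted p = 0.0897) and KO replicate 2 (-1.19, edgeR unadjusted p = 0.0856). Nqo1 had the fewest reads of the members, from 210 to 1054 per library.

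Gclc had 48.5, 30.3 and 35.8 CPM in the WT group and 34.1, 103 and 34.2 CPM in the KO group. Only KO replicate 2 lay outside the WT range, and the log2 fold change of 0.58 (95% interval -0.62 to 1.77) became -0.16 without it. The partner subunit Gclm did not share that peak, with 57 to 75.2 CPM in WT and 69.8 CPM in KO replicate 2.

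Of 9 genes of glutathione synthesis and recycling, 1 was lower past the threshold and none higher, against 5.85% and 3.1% of all genes, and the median log2 fold change was 0.04. Slc7a11, the cystine importer that feeds glutathione synthesis, had 231, 374 and 169 CPM in the WT group and 78.0, 86.6 and 64.2 CPM in the KO group, 3.38-fold lower in KO (log2 fold change -1.76, standard error 0.32, edgeR unadjusted p = 0.00153, adjusted p = 0.321). The groups were far apart, and the log2 fold change stayed between -2.01 and -1.36 under 14 alternatives. Its adjusted p-value was 8.7e-05 with DESeq2 and 0.0457 in edgeR without WT replicate 2, and over the 14 alternatives it ran from 1.28e-06 to 0.668, under 0.05 in 3 of them. It passed the threshold without each lesion in turn. Gss, the second enzyme of glutathione synthesis, did not reach the fold limit and was 1.76-fold higher in KO, at 18 to 28.6 CPM in WT and 33.7 to 49.2 CPM in KO lesions (edgeR unadjusted p = 0.0137).

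Glutathione recycling and the thioredoxin system draw on NADPH. G6pdx, which makes NADPH in the pentose phosphate pathway, had the highest mean of the NADPH supply genes over all 6 lesions, although Pgd was higher in WT (mean 254 CPM against 225 CPM). G6pdx stood at 230.0, 207 and 239 CPM in the WT group and 389, 365 and 316 CPM in the KO group. Every KO lesion was above every WT lesion, 1.58-fold on the fitted scale (log2 fold change 0.66, standard error 0.15, edgeR unadjusted p = 0.00443, adjusted p = 0.321). Its adjusted p-value over the alternatives ran from 0.000279 with DESeq2 to 0.668. None of the 5 tested genes of NADPH supply passed the fold limit. Idh1 had its highest value, 399.8 CPM, in KO replicate 3, as Cat did.

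Of the 15 peroxiredoxin and thioredoxin genes, 1 (6.67%) was lower past the threshold, near the 5.85% of all genes. Glrx, a glutaredoxin, had 26.2, 99.9 and 27.8 CPM in the WT group and 11.2, 8.68 and 20.9 CPM in the KO group (log2 fold change -1.92, edgeR unadjusted p = 0.0255), and it was -0.99 without WT replicate 2. The Glrx call was lost without 3 of the 6 lesions, namely WT replicate 2 and KO replicates 1 and 2. The cytosolic thioredoxin reductase Txnrd1 was 1.39-fold lower in KO (369 to 421 CPM against 248 to 331 CPM, edgeR unadjusted p = 0.0292). Prdx1, the peroxiredoxin with the most reads, had 466 to 669 CPM in WT and 725 to 805 CPM in KO lesions, without overlap, at an unadjusted p-value of 0.0596 in edgeR.

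Part of the NRF2 list, to which Nqo1 belongs, was lower in KO lesions. Nqo1 was highest in WT replicate 1, whereas Slc7a11 and Maff, the other genes called, were highest in WT replicate 2. Of 22 regulators and targets, 3 were lower past the threshold (Nqo1, Slc7a11 and Maff) and none higher, and 8 were lower and 1 higher at an unadjusted p-value under 0.05 in edgeR. Of all genes, 5.85% were lower and 3.1% higher at the threshold, and 8.16% and 6.55% at the unadjusted p-value alone. Without WT replicate 2 the count of 3 became 2. The median log2 fold change was -0.55, and -0.14 without WT replicate 2, the lesion with the highest value for 13 of the 22 genes. WT replicate 2 held the highest value for 24.2% of all genes tested. Among the regulators, all 3 small MAF partners of NRF2 were lower at an unadjusted p-value under 0.05 in edgeR, namely Mafg (53.6 to 68.6 CPM against 29.0 to 38.4 CPM, edgeR unadjusted p = 0.00255), Mafk (33.4 to 45 CPM against 21.3 to 29.4 CPM, edgeR unadjusted p = 0.0150) and Maff (17.5 to 32.5 CPM against 6.20 to 14.6 CPM, edgeR unadjusted p = 0.0174). None of the 3 overlapped between groups. Over 14 alternatives the adjusted p-value was under 0.05 in 2 for Mafg (0.00246 with DESeq2, highest 0.668) and in 0 for Mafk and Maff. Maff, which alone of them passed the fold limit, lost its call without WT replicate 2, KO replicate 1 or KO replicate 2. Bach1, a repressor of NRF2 targets, was also lower (edgeR unadjusted p = 0.0457, log2 fold change -0.99, and -0.52 without WT replicate 2), as was the autophagy receptor Sqstm1 (1.57-fold, edgeR unadjusted p = 0.0272). Nfe2l2 itself had a log2 fold change of -0.43 (edgeR unadjusted p = 0.231). On the other side, Ephx1, an epoxide hydrolase, was 1.72-fold higher in KO lesions (59.9 to 97.8 CPM against 133 to 155 CPM, edgeR unadjusted p = 0.0119). The ferritin heavy chain Fth1, the gene of this list with the most reads, had 9051 CPM in WT replicate 2 and 2283 to 3008 CPM in the other lesions.

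Cybb encodes the membrane subunit that passes electrons from NADPH to oxygen in neutrophils and macrophages. Cybb (ENSMUSG00000015340.11, chromosome X, bases 9435252 to 9487771 in GRCm38) had 143, 433 and 164 CPM in the WT group and 111, 94.3 and 159.8 CPM in the KO group. WT replicate 2 was high, KO replicate 3 lay between WT replicates 1 and 3, and the groups overlapped. The means were 247 ± 162 CPM and 122 ± 34.1 CPM (SD, n = 3), a 2.03-fold difference that did not pass the threshold (log2 fold change -1.02, standard error 0.48, edgeR unadjusted p = 0.0785, adjusted p = 0.366). Without WT replicate 2 the log2 fold change was -0.33. Relative to the summed macrophage markers, Cybb was 11.6%, 15.2% and 13.3% in WT and 13.9%, 16.2% and 10.9% in KO lesions, and these ranges overlapped. The part of macrophage number in the Cybb values was not tested.

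Among the 15 tested NADPH oxidase genes, 4 were lower past the threshold and none higher, where 5.85% of all genes were lower and 3.1% higher. The median log2 fold change was -1.22, and -0.53 without WT replicate 2, where none of the 15 passed. Duoxa1, too low to be tested with all lesions, passed in that fit at 0.256 CPM or less. WT replicate 2 held the highest value for 10 of the 15. The cytosolic subunits that assemble with Cybb showed that lesion most strongly. Ncf1 had 55.4, 304 and 36.6 CPM in the WT group and 26.4, 13.4 and 43.1 CPM in the KO group (log2 fold change -2.26, edgeR unadjusted p = 0.0489, and -0.73 without WT replicate 2). Ncf4 had 14.9, 86.7 and 11 CPM in the WT group and 7.23, 3.67 and 10.002 CPM in the KO group (log2 fold change -2.43, unadjusted p = 0.0356, and -0.89 without that lesion). The calls for Ncf1 and Ncf4 were lost without WT replicate 2 and without each KO lesion in turn. Of the 9 tested neutrophil markers, 4 were lower past the threshold, where 5.85% of all genes were lower, and 0 passed without WT replicate 2. Their median log2 fold change was -3.66, and -1.01 without that lesion. All 9 had their highest value in WT replicate 2, where the sum of the list was also highest, as given above. Ngp and Camp were at 0 in some lesions. The part of neutrophils in the oxidase values was not tested. Cyba, the other membrane subunit, which also partners other NADPH oxidases, was near level at 159 to 222 CPM in WT and 159 to 214 CPM in KO lesions.

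Duox2 and its maturation factor Duoxa2 also passed, at levels of at most 2.31 CPM and 0.990 CPM, and each lost its call in 5 of the 6 fits that left out a lesion, all but the one without WT replicate 1. The non-phagocyte oxidases varied between KO lesions. Nox1, an oxidase of epithelium and smooth muscle, had 43.2, 30.9 and 87.9 CPM in WT, 0.246 and 1.19 CPM in KO replicates 1 and 2, and 21.9 CPM in KO replicate 3. The groups did not overlap, but with that spread the log2 fold change of -2.80 had a standard error of 1.52 (edgeR unadjusted p = 0.115). Nox4 showed the same split, at 9.65 to 16.1 CPM in WT, 2.14 and 2.07 CPM in KO replicates 1 and 2, and 11.1 CPM in KO replicate 3. Nox3 and Duoxa1 were not tested because of low counts.

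**Figure D4:**
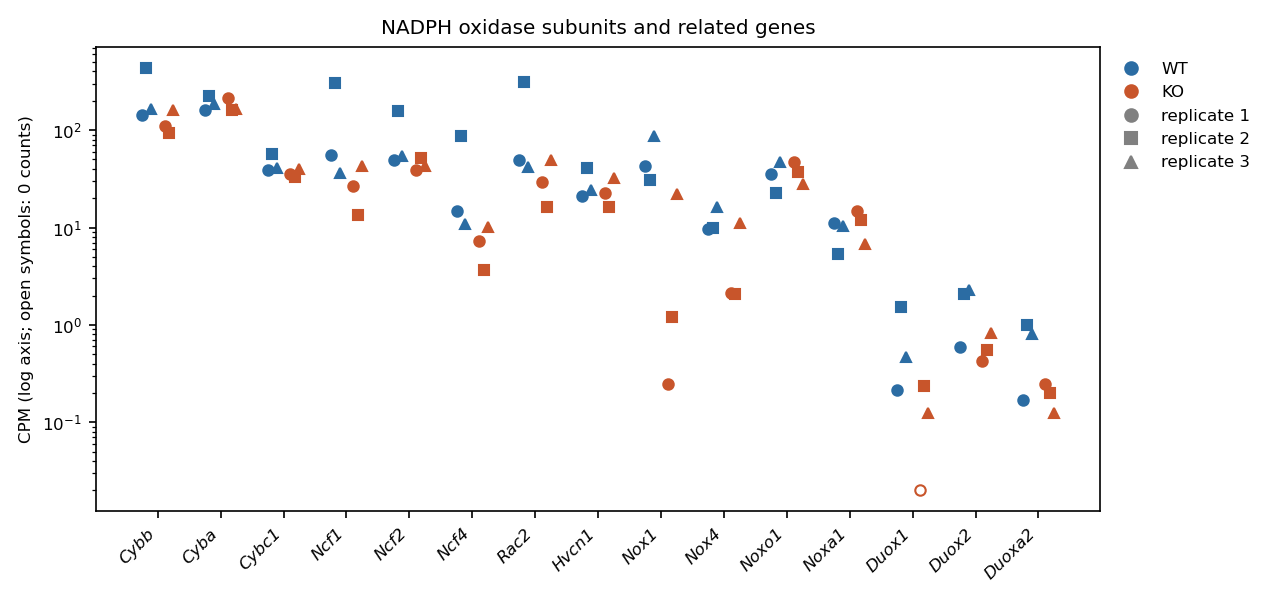
CPM of the 15 tested NADPH oxidase genes in each lesion on a log axis, with WT in blue, KO in orange and the replicate number as symbol shape. The open symbol for Duox1 marks 0 counts and is placed at the foot of the axis. WT replicate 2 stands far above the other lesions for Ncf1, Ncf4 and Rac2, while Cyba and Noxo1 overlap between groups.

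Other enzymes that make oxidants gave 2 of 7 genes lower past the threshold, where 5.85% of all genes were lower. Nos2, the inducible nitric oxide synthase of activated phagocytes, had 20.1, 507 and 9.72 CPM in the WT group and 1.44, 1.79 and 3.54 CPM in the KO group. The groups did not overlap, and the log2 fold change of -6.31 (edgeR unadjusted p = 0.0121) was -2.72 without WT replicate 2 (unadjusted p = 0.00317). Nos1, a synthase of neurons and skeletal muscle, had 15.2 and 14.8 CPM in WT replicates 1 and 3 and 1.54 to 2.23 CPM in the other 4 lesions (log2 fold change -2.51, edgeR unadjusted p = 0.0155). Those 2 lesions are the ones with skeletal muscle transcripts, all 7 tested markers of which were lower in KO lesions past the threshold, and their part was not tested. The Nos1 call was lost without KO replicate 1 or KO replicate 3, whereas that of Nos2 held without each lesion in turn. Over 14 alternatives the log2 fold change of Nos1 ran from -3.01 to -2.15. Its adjusted p-value was under 0.05 in 3 of them, among these DESeq2 (0.0164), and reached 0.668. DESeq2 with all lesions gave no adjusted p-value for Nos2. Of the 13 alternatives that gave one, 1 was under 0.05 (9.23e-05, DESeq2 without WT replicate 2), and the highest was 0.668. Xdh, xanthine dehydrogenase, had the highest mean of this list and a log2 fold change of -0.42 (edgeR unadjusted p = 0.312).

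To compare members with one another, counts were divided by transcript length and scaled to a sum of 1000000 per lesion (TPM). In WT lesions Gpx3 (1911 ± 215 TPM) and Gpx1 (1850.2 ± 355 TPM) led and did not differ beyond their spread (SD, n = 3). Sod1 (527 ± 56.6 TPM) and Gpx4 (361 ± 61.2 TPM) came next, each with a range below that of the gene before it. Cat (156 ± 50.6 TPM), Cybb (119.0 ± 77.4 TPM), Sod2 (73.9 ± 34.8 TPM), Sod3 (44.7 ± 18.3 TPM), Gclc (25.7 ± 6.78 TPM) and Nqo1 (22.0 ± 10.5 TPM) followed, and neighbours among these 6 overlapped. In KO lesions the order at the top was Gpx1 (2985.5 ± 922 TPM), Gpx3 (1534 ± 1006 TPM), Sod1 (629 ± 126 TPM) and Gpx4 (367 ± 96.5 TPM), with Gpx1 and Gpx3 overlapping, and Nqo1 was last at 9.61 ± 5.15 TPM. The Sod1 level depends on which transcripts are counted as its length: it was 110.2 TPM in WT when a long transcript with a retained intron was included, which would place it 6th.

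**Figure D5:**
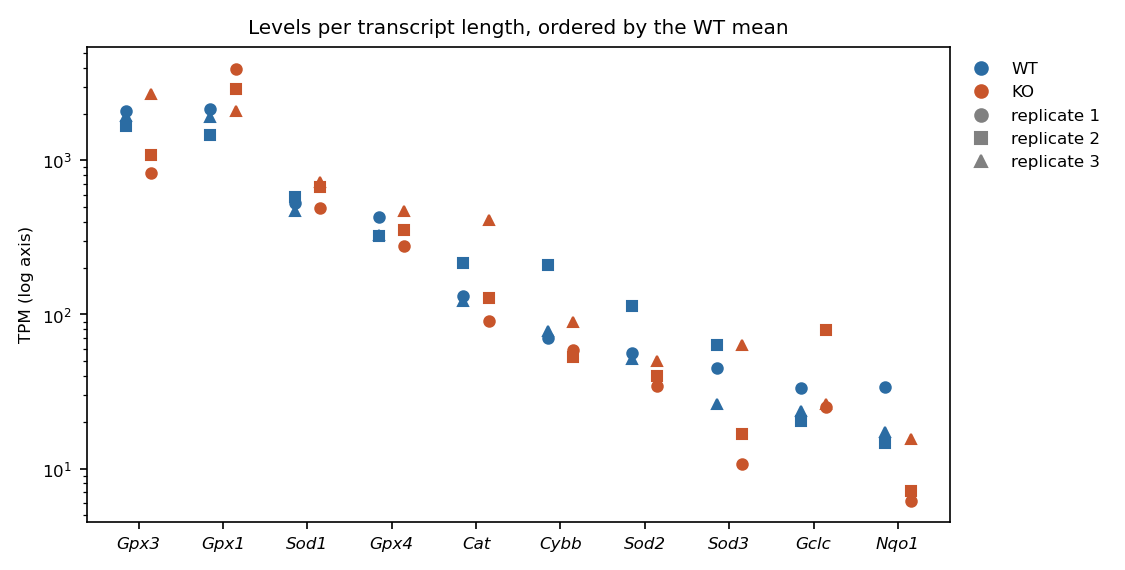
TPM of the 10 members in each lesion on a log axis, ordered by the WT mean, with WT in blue, KO in orange and the replicate number as symbol shape. Gpx3 and Gpx1 lead in WT, and Nqo1 is lowest in both groups on average.

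Likeness of pattern was measured as the root-mean-square difference of centred log2 CPM over the 6 lesions, where 0 means the same pattern. Among the members, Sod1 and Gpx4 (0.22) and Sod2 and Cybb (0.21) were the closest pairs. Sod3 and Gpx1 were the farthest apart, at 1.38. Over genes with a mean of at least 1 CPM, the 5 closest to Cybb were Wsb1, Dclre1c, Lyz1, Lacc1 and Ptpre, at 0.0424 to 0.0856 against a median of 0.776 over all genes. Lyz1 has a near-identical neighbour, Lyz2, and how reads common to both were counted was not examined, so its values are uncertain. Wsb1, a ubiquitin ligase subunit, had 27.4, 79.3 and 32.0 CPM in the WT group and 21.9, 18.7 and 29.8 CPM in the KO group, with WT replicate 2 on top as for Cybb. The 5 closest to Nqo1 were Wipf3, Fxyd6, Nkd2, Gm12185 and Iffo1, at 0.153 to 0.219 against a median of 0.940. Fxyd6, a regulator of the sodium pump, had 191, 79.4 and 107 CPM in the WT group and 43.2, 41.1 and 85.7 CPM in the KO group, so that it overlapped between groups where Nqo1 did not.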

How the data were processed

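RNA was sequenced from 3 WT and 3 KO ectopic lesions, 1 stranded mRNA library each (45370342 to 57239184 counts). The deposited values are raw counts of reads per gene that the authors made on Galaxy, and per the labels the tools were Trimmomatic, featureCounts and DESeq2, with versions not given in the sources used here. The labels name GRCm39 as genome build and the methods GRCm38, and printed coordinates are those of the reference used here (GRCm38, with RefSeq windows of GRCm38.p6). Of 56884 gene identifiers, 51948 matched GENCODE M21 symbols once their version was removed, and 35 kept the same version.

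Tests used edgeR 4.0.16 under R 4.3.3 (filterByExpr, TMM, quasi-likelihood test of genotype, Benjamini-Hochberg adjustment over 18177 genes). Standard errors were taken as the absolute fold change (log2) over the root of the F statistic. TPM used exons of GENCODE's basic transcripts, chosen after seeing the lengths. Exact permutation tests of 3 lesions against 3 cannot go below 0.1. Counts have no molecular identifiers, and donors were separate mice. The steps were tested on simulated data. Alternatives were other scalings and filters, DESeq2 1.42.0, limma 3.58.1 voom, the replicate number as a block, and each lesion left out. DESeq2 without WT replicate 2 and ratios to marker sums were added after seeing the data. Members and gene lists were chosen with earlier results of these data known. All members were named, with genes of the redox lists at an unadjusted p-value under 0.05, the gene with the most reads of each list and the 5 patterns nearest to Cybb and Nqo1; others were named after their values were seen. Marker lists were neutrophil, macrophage, skeletal muscle, adipocyte, endometrial epithelium and endometrial stroma, and 4 further lists (smooth muscle, endothelium, erythroid, mesothelium) had summed levels of 1119 to 4957, 235 to 664, 54.5 to 726 and 398 to 780 CPM.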

Additional observations from a re-analysis of the deposited data

How the results depend on the processing

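All 10 members were recomputed under 14 alternatives, and 0 had an adjusted p-value under 0.05 in any of them. The sign held in all 14 for 7 members (Sod2, Sod3, Gpx1, Gpx3, Gpx4, Nqo1 and Cybb) and changed in some for Sod1, Cat and Gclc. With 3 lesions per group, single lesions had much weight: WT replicate 2 for Sod2, Cybb and the NADPH oxidase list, WT replicate 1 for the Nqo1 call, KO replicate 3 for Cat, Sod3 and Gpx3, and KO replicate 2 for Gclc.

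Leaving out each lesion gave 280 to 1021 higher and 551 to 1650 lower genes at the threshold (564 and 1064 with all lesions), and 0 to 2 higher and 0 to 396 lower genes with an adjusted p-value under 0.05 (0 and 1). It gave 0 to 4 lower members at the threshold: none without KO replicate 1 or KO replicate 2, and 4 without KO replicate 3. The log2 fold change ran from -0.031 to 0.21 for Sod1, -1.24 to -0.56 for Sod2, -1.88 to -0.36 for Sod3, -0.69 to 0.58 for Cat, 0.24 to 0.73 for Gpx1, -1.16 to -0.22 for Gpx3, -0.36 to -0.0082 for Gpx4, -1.88 to -0.94 for Nqo1, -0.16 to 0.84 for Gclc and -1.29 to -0.33 for Cybb. Lower genes at the threshold numbered 0 to 2 for superoxide dismutases, 0 to 1 for catalase and peroxidases, 0 to 2 for peroxiredoxins and thioredoxins, 1 to 2 for glutathione synthesis, 0 to 1 for NADPH supply, 1 to 5 for NRF2, 1 to 8 for NADPH oxidases and 1 to 3 for other oxidant-making enzymes.

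The replicate number does not pair the lesions (correlations of same-numbered deviations 0.03, -0.15 and -0.20, and no WT lesion correlated best with its own number). With the replicate block, 372 genes were higher and 573 lower at the threshold, 0 lower at an adjusted p-value under 0.05, and 1 member was lower. With that block the log2 fold change was -0.93 for Sod2 and -0.062 for Cat, and 0 superoxide dismutases, 0 peroxiredoxins and 0 other oxidant-making enzymes were lower. Upper quartile scaling, which moved the median of all genes from 0.01 to 0.11, left 0 genes lower at an adjusted p-value under 0.05. At the threshold it gave 907 lower and 716 higher genes, 1 lower member, Sod2 at -0.93, 0 superoxide dismutases and 1 NADPH oxidase gene. DESeq2 size factors left 0 lower genes at an adjusted p-value under 0.05. No filter beyond 1 count gave 1652 lower genes at the threshold. The DESeq2 Wald test gave 391 higher and 709 lower genes at an adjusted p-value under 0.05, Cybb at -1.03 past the threshold and 8 NADPH oxidase genes. Voom gave 855 higher genes at the threshold, 12 lower at an adjusted p-value under 0.05, Sod2 at -0.74, Sod3 at -1.36 and Gpx3 at -1.08 (both past the threshold), Cat at -0.27, 1 gene among catalase and peroxidases, 2 of glutathione synthesis and 2 NADPH oxidase genes. DESeq2 without WT replicate 2 gave 353 higher and 1234 lower genes at an adjusted p-value under 0.05. At the threshold it gave 673 higher and 1188 lower genes, 1 lower member, Sod2 at -0.56, 0 superoxide dismutases, 0 peroxiredoxins, 2 of glutathione synthesis and 1 NADPH oxidase gene. With exons of all transcripts as length, the WT level was 110.2 TPM for Sod1 and 2174 TPM for Gpx3. Where a scaling, filter or tool changed a call, the cause was not tested.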
